A study of Mus with 18 samples.

Results

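The genes described here are 8 heat shock chaperones and co-chaperones of mouse lens epithelial cells (LECs): Hspa1a, Hspa1b, Hspa8, Hsp90aa1, Hspb1, Dnajb1, Hsph1 and Bag3. They were taken by their Ensembl gene IDs from a list that was given, and make up 8 of the 55416 gene IDs in the tables. All 8 passed the filter on low counts. The study removed the lens fiber cells from living mice, a model of cataract surgery (post cataract surgery, PCS), and sequenced RNA of the LECs left on the lens capsule. It measured 18 libraries in 6 groups of 3: wild type (WT), Egr1KO and FosBcKO, each at 0 h and at 6 h PCS.

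The labels give the strain of all mice as C57BL/6, and per the study's methods the mice were adults of 3 to 5 months and of both sexes. Egr1KO mice lack Egr1 in every tissue, through a cassette inserted into exon 2, on an allele first made on a mixed genetic background. FosBcKO mice carry floxed Fosb alleles with exons 2 and 3 deleted by the MLR10-cre transgene, whose modified alpha-A crystallin promoter is active in the lens, so cells outside the lens keep Fosb. This transgene came from the FVB/N strain and had been crossed to C57BL/6 for more than 10 generations. Each library pooled the capsules of 5 animals. In each mouse surgery on one eye preceded surgery on the other by 6 h and both were harvested at once, so the 0 h capsules also come from mice that had an operated eye. The 0 h libraries are thus the controls for time within a genotype, and the WT libraries at the same time are the controls for genotype. The p-values below measure the spread between such pools.

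Heat shock proteins are molecular chaperones that hold, refold or help to degrade damaged proteins. HSP70 proteins bind exposed stretches of unfolded chains in a cycle driven by ATP, J-domain proteins such as the product of Dnajb1 bring them their clients, nucleotide exchange factors reset the cycle, and HSP90 acts later on a narrower set of clients. Some family members are made at all times, whereas others are kept low until protein damage releases the heat shock transcription factors. In the lens, small heat shock proteins and chaperones are known for keeping long-lived proteins in solution.

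The libraries held 9609295 to 13871592 read pairs counted in genes. Levels are given as normalised CPM, that is counts per 1000000 gene read pairs after scaling by TMM (trimmed mean of M values). They depend on transcript length, so they are compared between libraries and not between genes. Pairs that fell on no counted feature, called pairs outside genes below, moved with time. They can include pairs from introns, and whether they mark library or RNA quality was not tested. Their share of all pairs was 15.2% to 19.8% for WT at 0 h and 23.6% to 27.4% at 6 h, 9.09% to 13.5% and 20.0% to 24.0% in Egr1KO, and 8.03% to 20.9% and 23.4% to 30.5% in FosBcKO, where the 20.9% was that of replicate 2 at 0 h. In every genotype the 6 h libraries thus lay above the 0 h libraries, and at 0 h the Egr1KO libraries lay below those of WT. The part of this shift in the differences between times and genotypes given below was not tested. On the first principal component of all genes, which held 43.6% of the variance, Egr1KO 6 h replicate 1 lay nearest to the 0 h libraries. Genotype labels could not be checked by the counts of Egr1 and Fosb, nor the LEC label by marker genes, because the tables carry no gene names. In such bulk libraries fewer cells of a type and less RNA per cell cannot be told apart.

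At 6 h PCS the LECs held more Dnajb1, Hspa1a and Bag3 mRNA than at 0 h in all 3 genotypes. Dnajb1 rose 5.59-fold in WT, 5.66-fold in Egr1KO and 5.86-fold in FosBcKO. Hspa1a, an HSP70 that cells make under stress, rose 2.70-fold, 4.56-fold and 5.49-fold, and Bag3, a co-chaperone of HSP70 that feeds clients to autophagy, rose 2.42-fold, 3.63-fold and 2.68-fold. Hspa8, the HSP70 that cells make at all times, was the member with a lower mean at 6 h in each genotype, and it passed the test in Egr1KO alone.

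In WT, 4 of the 8 genes were called, all higher at 6 h, where a call is an FDR (Benjamini-Hochberg false discovery rate over all genes tested) of at most 0.05 in edgeR's quasi-likelihood F-test. Of all 15440 genes tested, 26.2% were called, 16.5% higher and 9.72% lower. In Egr1KO, 6 genes were called, 5 higher and 1 lower, beside 21.2% of all genes, 12.1% higher and 9.04% lower. In FosBcKO 4 were called, all higher, beside 21.8% of all genes and 14.1% higher. In each genotype 3 of the 8 were called with a change of more than 2-fold, beside 17.1% of all genes for WT, 12% for Egr1KO and 13.1% for FosBcKO. The median log2 fold change of the 8 genes was 0.79 for WT, 0.72 for Egr1KO and 0.97 for FosBcKO, where the medians over all genes tested were -0.022, 0.0030 and 0.048. The libraries of the 2 times did not overlap for 7 genes in WT, all higher at 6 h, beside 26.4% of all genes. In Egr1KO 6 genes lay apart and higher, beside 21.3%, and 1 apart and lower, beside 21.6%, and in FosBcKO 5 lay apart and higher, beside 22.9%.

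**Figure D1:**
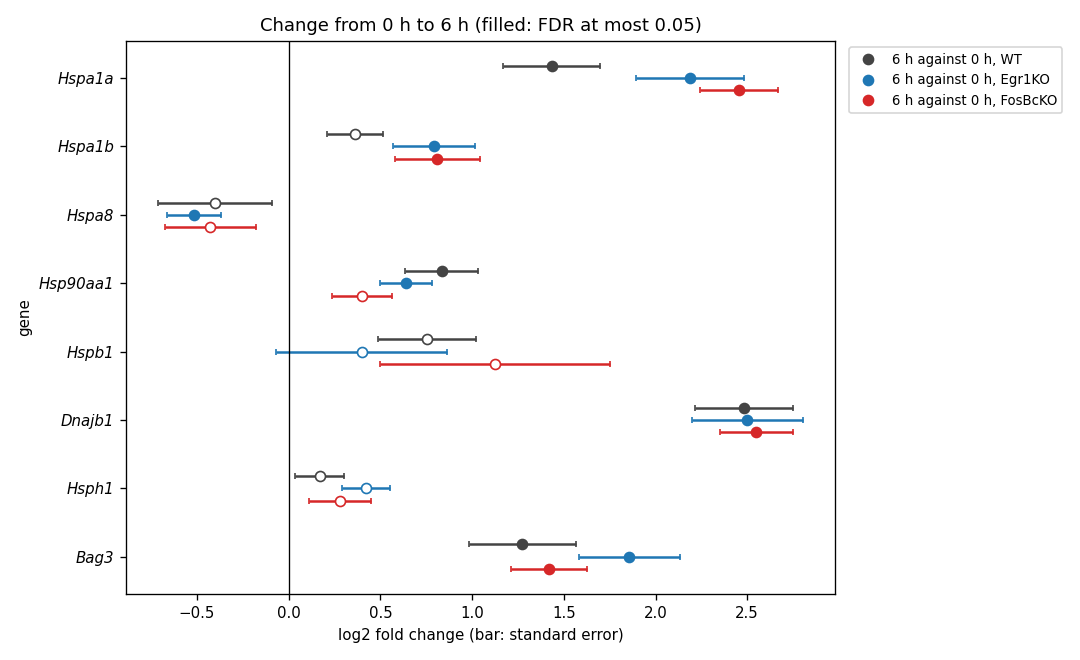
Log2 fold changes of the 8 genes at 6 h against 0 h PCS in WT, Egr1KO and FosBcKO, with bars of 1 standard error and filled points for genes called at an FDR of at most 0.05. Dnajb1, Hspa1a and Bag3 lie above 1 in every genotype, and Hspa8 lies below 0 in every genotype.

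Dnajb1 (ENSMUSG00000005483) encodes an HSP40, the J-domain protein that stimulates the ATPase of HSP70. In WT its level was 38.4, 52.7 and 46.6 normalised CPM at 0 h and 348, 267 and 175 at 6 h. The Egr1KO libraries held 86.9, 50.2 and 64.2 at 0 h and 543, 277 and 330 at 6 h, and the FosBcKO libraries 43.0, 39.0 and 64.1 at 0 h and 255, 292 and 296 at 6 h. Every library at 6 h lay above every library at 0 h, whatever the genotype, and the 3 genotypes overlapped at each time. The log2 fold change at 6 h was 2.48 ± 0.27 (SE) in WT, 2.5 ± 0.30 in Egr1KO and 2.55 ± 0.20 in FosBcKO, with quasi-likelihood F-test FDRs of 0.00137, 0.00312 and 9.08e-05. The call held in each genotype under each of the 17 alternatives run, leaving out each library included. The differences between these responses and that of WT were -0.0065 ± 0.39 (SE) on the log2 scale in Egr1KO and 0.0084 ± 0.40 in FosBcKO.

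Hspa1a (ENSMUSG00000091971) and Hspa1b (ENSMUSG00000090877) encode near-identical copies of stress-inducible HSP70 and are neighbours on chromosome 17, with 0 other genes starting between them in the RefSeq table of GRCm38.p6. Read pairs that fit both copies were dropped by the counting, so the counts of each rest on the pairs that could be told apart, and both levels are uncertain. In WT the level of Hspa1a was 17.5, 12.6 and 12.8 normalised CPM at 0 h and 51.8, 26.8 and 40.1 at 6 h. In Egr1KO it was 8.57, 13.5 and 7.12 at 0 h and 53.0, 34.0 and 47.7 at 6 h, and in FosBcKO 13.1, 10.98 and 11.6 at 0 h and 70.8, 74.7 and 47.3 at 6 h. As for Dnajb1, the 2 times lay apart over all genotypes, and at 6 h the genotypes overlapped. The log2 fold change was 1.44 ± 0.26 (SE) in WT, 2.19 ± 0.29 in Egr1KO and 2.46 ± 0.21 in FosBcKO, with quasi-likelihood F-test FDRs of 0.00721, 0.00389 and 0.000182. The call held under each of the 17 alternatives in each genotype.

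Hspa1b moved less. Its level was 37.3, 29.4 and 31.0 normalised CPM in the WT libraries at 0 h and 44.4, 44.0 and 40.1 at 6 h. The Egr1KO libraries held 23.8, 33.8 and 22.5 at 0 h and 36.5, 51.9 and 51.5 at 6 h, and the FosBcKO libraries 17.3, 16.0 and 20.9 at 0 h and 26.1, 41.7 and 25.9 at 6 h. Within each genotype the 6 h libraries lay above those of 0 h, by a narrow margin in WT and Egr1KO. The gene rose 1.73-fold in Egr1KO and 1.75-fold in FosBcKO, with quasi-likelihood F-test FDRs of 0.0399 and 0.0317, and had a log2 fold change of 0.36 ± 0.15 (SE) in WT with an FDR of 0.113. Both calls lay near the threshold. In Egr1KO the FDR was 0.133 and 0.162 without 0 h replicate 1 or 3 and 0.0794 and 0.133 without 6 h replicate 2 or 3, with log2 fold changes of 0.65 to 0.72. With library totals for scaling the Egr1KO value was 0.0655. In FosBcKO the FDR was 0.108, 0.112 and 0.0713 without 0 h replicate 1, 2 or 3, with log2 fold changes of 0.76, 0.66 and 0.87, and 0.152 without 6 h replicate 2, with 0.51.

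The balance between the copies differed between the times. Of the read pairs counted in either copy, between 266 and 1279 per library, Hspa1a took 31.9%, 30.0% and 29.2% in WT at 0 h and 53.8%, 37.9% and 50.1% at 6 h. In Egr1KO its share was 26.5%, 28.5% and 24.1% at 0 h and 59.2%, 39.5% and 48.1% at 6 h, and in FosBcKO 43.1%, 40.7% and 35.6% at 0 h and 73.1%, 64.2% and 64.6% at 6 h. No library at 6 h had a share as low as the highest at 0 h of its own genotype. The share was higher at 6 h by 22.3 percentage points on average, by 16.9 in WT, 22.6 in Egr1KO and 27.5 in FosBcKO, with p = 0.00025 in an exact two-sided permutation test of the times within genotypes (adjusted p = 0.000625 over the 5 tests of shares), the smallest p these 8000 arrangements allow. Leaving out each library gave 20.6 to 23.9 points.

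The same share was also higher in FosBcKO than in WT, by 9.45 points at 0 h and 20.0 points at 6 h. At each time every FosBcKO library lay above every WT library. The mean difference of 14.7 points had p = 0.005 in an exact two-sided permutation test of the genotypes within times (adjusted p = 0.00625), the smallest p of 400 arrangements, and was 12.4 to 16.4 points without each library. That test takes the libraries of the 2 times as separate animals, so its p can be too small. Both eyes of each mouse were used, with surgery 6 h apart, and which pools share mice is not stated. With same-numbered libraries kept together, the 20 possible arrangements allow no p under 0.1, and the exact test gave p = 0.1. Between Egr1KO and WT the share differed by -1.17 points on average, -4.01 at 0 h and 1.68 at 6 h, with p = 0.74 in the same exact test. This difference was 0.481 points without WT 6 h replicate 1 and 1.19 points without Egr1KO 6 h replicate 2. These shares were examined after the counts of both genes had been seen, and read pairs that do not tell the copies apart are missing from them.

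**Figure D2:**
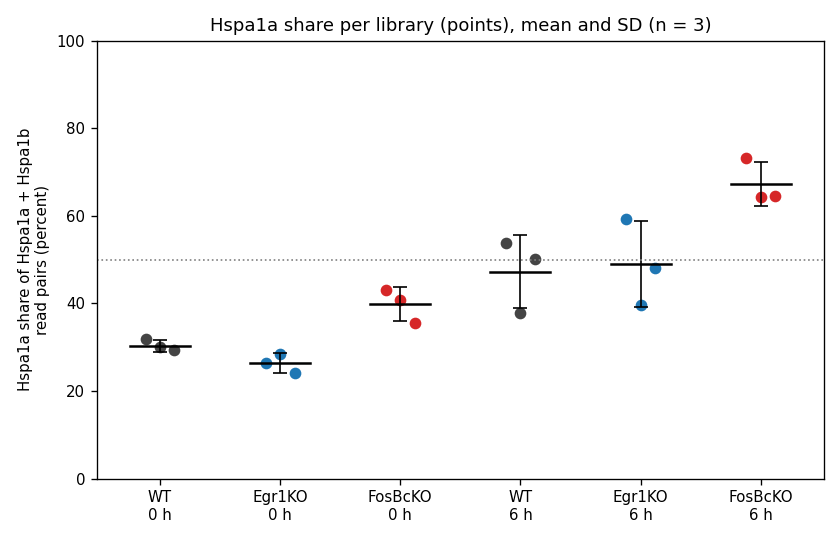
Share of Hspa1a in the read pairs counted in Hspa1a or Hspa1b, in percent, for each library by genotype and time PCS, with lines at group means, bars of 1 SD (n = 3) and a dotted line at equal shares. The 6 h libraries lie above the 0 h libraries of their genotype, and the FosBcKO libraries above those of WT at both times.

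With the counts of both copies summed to 1 gene, the level was 46.9 ± 6.91 normalised CPM (SD, n = 3) in WT at 0 h and 82.4 ± 12.8 at 6 h. It was 36.4 ± 9.48 and 91.5 ± 6.84 in Egr1KO, and 30.0 ± 2.81 and 95.5 ± 21.7 in FosBcKO. The sum rose in each genotype, with log2 fold changes of 0.78, 1.32 and 1.70 and quasi-likelihood F-test FDRs of 0.0135, 0.00587 and 8e-04. Dropped pairs that fit both copies are missing from the sum too.

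Hspa8 (ENSMUSG00000015656, chromosome 9) encodes the constitutive HSP70, which folds new proteins and uncoats clathrin vesicles. In WT its level was 1229, 1703 and 1696 normalised CPM at 0 h and 1061, 1695 and 832 at 6 h. The Egr1KO libraries held 1892, 1498 and 1883 at 0 h and 1221, 1189 and 1305 at 6 h, and the FosBcKO libraries 1328, 890 and 1481 at 0 h and 623, 1080 and 1005 at 6 h. The 2 times overlapped in WT and FosBcKO and lay apart in Egr1KO. The gene fell by 0.52 ± 0.15 (SE) on the log2 scale in Egr1KO with a quasi-likelihood F-test FDR of 0.0393, and had log2 fold changes of -0.40 ± 0.31 in WT and -0.43 ± 0.25 in FosBcKO with FDRs of 0.367 and 0.235. The Egr1KO call was lost in a single fit of all libraries (FDR 0.168) and with the replicate number as a block (FDR 0.0546), and with RLE size factors it lay at the threshold (FDR 0.05) and was not called. With no filter on low counts the FDR in FosBcKO was 0.0499. Without Egr1KO 0 h replicate 1, 2 or 3 the FDR was 0.15, 0.0625 and 0.158, and without Egr1KO 6 h replicate 3 it was 0.0992.

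Hsp90aa1 (ENSMUSG00000021270, chromosome 12) encodes the inducible form of cytosolic HSP90, which matures kinases and steroid receptors. Its level was 732, 778 and 834 normalised CPM in WT at 0 h and 1390, 1481 and 1410 at 6 h. In Egr1KO it was 854, 739 and 811 at 0 h and 1162, 1413 and 1200 at 6 h, and in FosBcKO 807, 695 and 782 at 0 h and 967, 1109 and 892 at 6 h. All 9 libraries at 6 h lay above all 9 at 0 h, and at 6 h the FosBcKO libraries lay below those of both other genotypes. The gene rose 1.78-fold in WT and 1.56-fold in Egr1KO with quasi-likelihood F-test FDRs of 0.0187 and 0.0182, and its log2 fold change in FosBcKO was 0.40 ± 0.16 (SE) with an FDR of 0.101. In WT the FDR was 0.103, 0.0899 and 0.0732 without 0 h replicate 1, 2 or 3 and 0.0608 without 6 h replicate 1, and in Egr1KO 0.0653, 0.0899 and 0.106 without 0 h replicate 1, 2 or 3 and 0.0616 without 6 h replicate 3.

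Hspb1 (ENSMUSG00000004951, chromosome 5) encodes the small heat shock protein HSP27, which holds unfolded proteins without ATP and binds actin filaments. Its level was 25.1, 37.1 and 55.6 normalised CPM in WT at 0 h and 70.9, 60.7 and 71.9 at 6 h. The Egr1KO libraries held 59.8, 39.3 and 87.8 at 0 h and 31.8, 106 and 109 at 6 h, and the FosBcKO libraries 95.6, 21.1 and 101 at 0 h and 151, 220 and 95.1 at 6 h. It was the member with the widest spread between replicates, and the times overlapped in both knockouts. The log2 fold change was 0.75 ± 0.27 (SE) in WT, 0.40 ± 0.47 in Egr1KO and 1.13 ± 0.63 in FosBcKO, with quasi-likelihood F-test FDRs of 0.0691, 0.563 and 0.251. The same-numbered libraries of WT deviated together over all genes. For Hspb1 itself, WT replicate 1 deviated in opposite directions at the 2 times, and replicates 2 and 3 in the same direction. In WT the fit with the replicate number as a block gave a log2 fold change of 0.82 and an FDR of 0.0225. Without WT 0 h replicate 3 the FDR was 0.022. The WT value also passed in the exact test (FDR 0.0435), in DESeq2 (FDR 0.0414) and with no filter (FDR 0.0134). It passed in only 5 of the 17 alternatives and in 1 of the 6 fits that left out a library. In a single fit of all libraries the FDR was 0.328.

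Hsph1 (ENSMUSG00000029657, also chromosome 5) encodes HSP110, a nucleotide exchange factor of HSP70 that also helps to dissolve aggregates. Its level was 82.7, 89.8 and 93.6 normalised CPM in WT at 0 h and 104.2, 105.6 and 96.4 at 6 h. The Egr1KO libraries held 78.0, 65.7 and 75.3 at 0 h and 95.3, 97.3 and 103.6 at 6 h, and the FosBcKO libraries 63.6, 65.2 and 78.7 at 0 h and 65.0, 94.8 and 88.2 at 6 h. The times lay apart in WT and Egr1KO by small margins and overlapped in FosBcKO. The log2 fold change was 0.17 ± 0.13 (SE) in WT, 0.42 ± 0.13 in Egr1KO and 0.28 ± 0.17 in FosBcKO, with quasi-likelihood F-test FDRs of 0.374, 0.0514 and 0.258. The Egr1KO value passed the threshold in only 4 of the 17 alternatives. These were a single fit of all libraries (FDR 0.0329), DESeq2 (FDR 0.0294), RLE size factors (FDR 0.0461) and the fit without Egr1KO 6 h replicate 1 (FDR 0.0346). Among the alternatives that did not pass, the FDR reached 0.187, without Egr1KO 0 h replicate 2.

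Bag3 (ENSMUSG00000030847) lies on chromosome 7. Its level was 80.4, 99.5 and 102 normalised CPM in WT at 0 h and 235, 325 and 139 at 6 h. The Egr1KO libraries held 67.5, 81.3 and 74.8 at 0 h and 163, 290 and 365 at 6 h, and the FosBcKO libraries 74.9, 82.2 and 86.8 at 0 h and 192, 289 and 161 at 6 h. Every library at 6 h lay above every library at 0 h, and the 6 h libraries spread more widely. The log2 fold change was 1.27 ± 0.29 (SE) in WT, 1.86 ± 0.28 in Egr1KO and 1.42 ± 0.21 in FosBcKO, with quasi-likelihood F-test FDRs of 0.0164, 0.00557 and 0.00339. In WT the FDR was 0.0754 without 0 h replicate 1 and 0.0505 without 0 h replicate 3, and in the knockouts the call held under each of the 17 alternatives run.

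**Figure D3:**
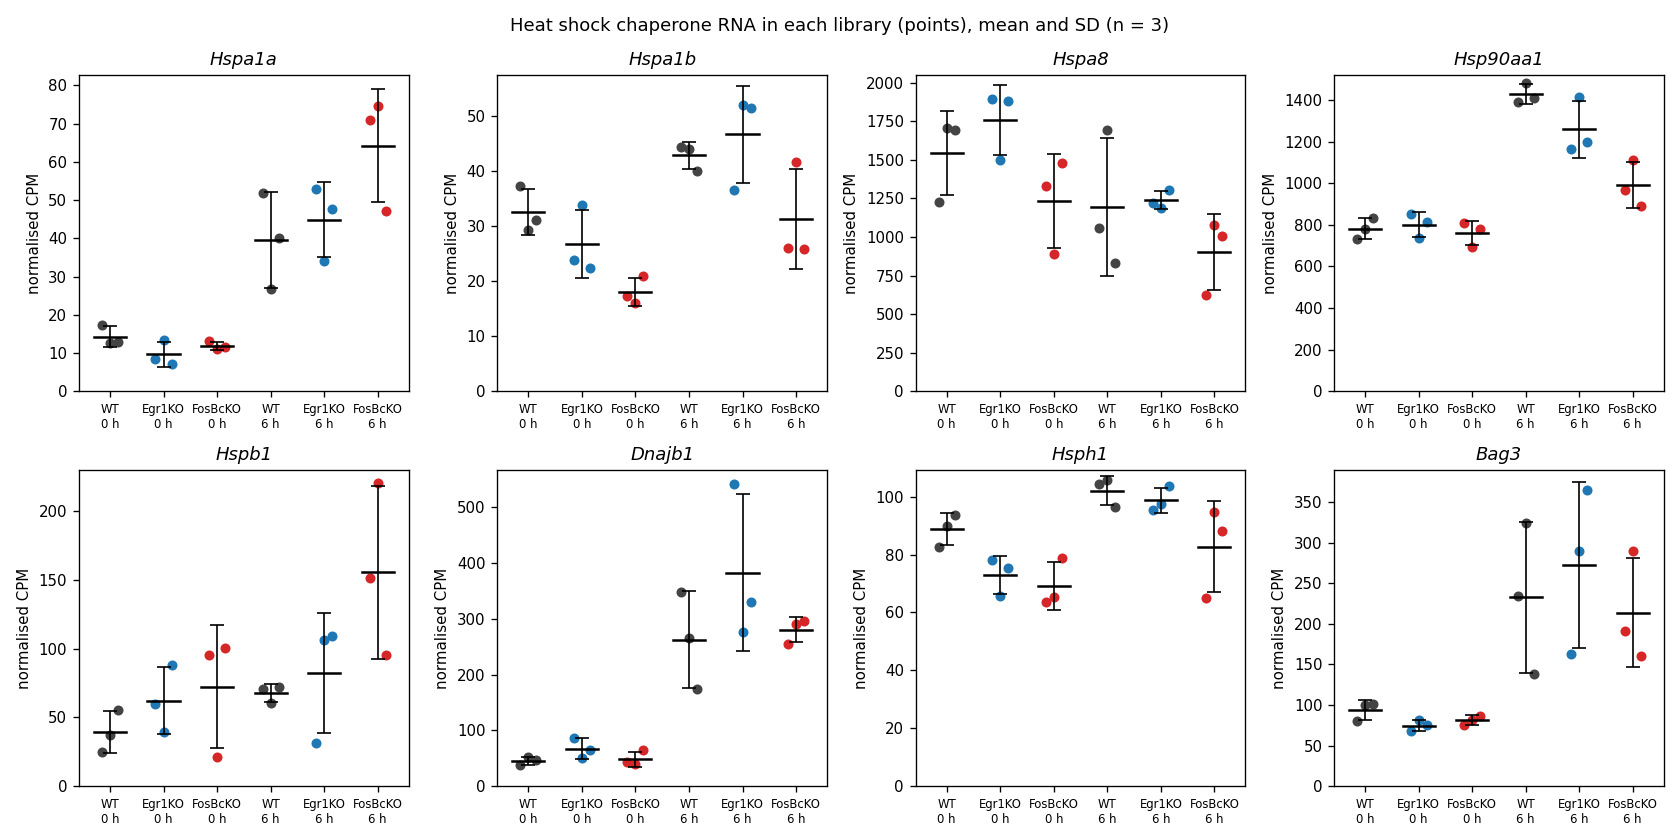
Normalised CPM of each of the 8 genes on linear axes from 0, by genotype and time PCS, with 1 point per library, a line at the group mean and bars of 1 SD (n = 3). For Dnajb1, Hspa1a, Bag3 and Hsp90aa1 all libraries at 6 h lie above all libraries at 0 h, and Hspb1 shows the widest spread within groups.

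Ordered by group mean, Dnajb1, Hspa1a and Bag3 had their 3 groups at 6 h above their 3 groups at 0 h, and neighbours in the order overlapped except across that step. Hsp90aa1 had a second step, with WT and Egr1KO at 6 h above FosBcKO at 6 h, which in turn lay above the 0 h groups. For Hsph1 the step lay below WT and Egr1KO at 6 h, followed by WT at 0 h, FosBcKO at 6 h and the knockouts at 0 h, all of which overlapped with their neighbours. For Hspa1b the means ran from Egr1KO and WT at 6 h, across a step, to WT at 0 h, FosBcKO at 6 h and Egr1KO at 0 h, and across another step to FosBcKO at 0 h. The 6 groups of Hspa8 and of Hspb1 showed no step, each group overlapping with the next.

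The 8 genes together took a larger mean share of all gene read pairs at 6 h in each genotype. The share was 0.266% ± 0.0359 (SD, n = 3) in WT at 0 h and 0.356% ± 0.0437 at 6 h, 0.280% ± 0.0232 and 0.319% ± 0.0231 in Egr1KO, and 0.230% ± 0.036 and 0.277% ± 0.0247 in FosBcKO. The mean difference over the genotypes was 0.0583 percentage points, with p = 0.00075 in an exact two-sided permutation test of the times within genotypes (adjusted p = 0.00125), where 0.00025 is the smallest p possible. Without each library it was 0.0502 to 0.0641 points, with p from 5e-04 to 0.00225 in the same exact test. The share overlapped between the times in Egr1KO, with 0.301% in 0 h replicate 1 and 0.297% in 6 h replicate 1. In FosBcKO the times lay apart narrowly, with 0.253% in 0 h replicate 3 and 0.256% in 6 h replicate 1. In WT they lay apart. This share is of library totals without TMM scaling, and Hspa8 and Hsp90aa1 supplied most of its pairs. The members were chosen with earlier results known and no other set of genes was compared. The test thus does not show a rise particular to chaperones.

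Within the 8, the make-up of the read pairs differed between the times. Hspa8 supplied 58.2% of the pairs in WT at 0 h and 34.7% at 6 h, 61.1% and 36.2% in Egr1KO, and 53.2% and 32.9% in FosBcKO. The mean difference of -22.9 points had p = 0.00025 in the exact two-sided permutation test (adjusted p = 0.000625), the smallest possible, and ranged from -24.2 to -21.9 points without each library. Dnajb1 went from 1.74% to 7.81% of the pairs in WT, from 2.31% to 11.3% in Egr1KO and from 2.12% to 10.4% in FosBcKO. Hsp90aa1 supplied 29.8% and 43.1% in WT, 28% and 36.7% in Egr1KO and 33.7% and 36.7% in FosBcKO. A share within a sum moves with all its parts, so these values do not show that the amount of any 1 mRNA changed. They restate the gene levels given above, from which the fall in the Hspa8 share follows. The test of this share thus adds no separate evidence of a change.

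Egr1KO was compared with WT at each time to ask whether Egr1, an immediate early transcription factor, bears on these levels in LECs. At 0 h 0 of the 8 genes were called by edgeR's exact test, beside 0.543% of 14373 genes tested, and 3 had an unadjusted p under 0.05, beside 6.4% of all genes, while the quasi-likelihood F-test and DESeq2 also called 0. These 3 were Dnajb1 with a log2 difference of 0.52 ± 0.20 (SE), Hsph1 with -0.30 ± 0.10 and Bag3 with -0.36 ± 0.12, at exact test FDRs of 0.571, 0.747 and 0.625. Hsph1 was also the gene whose libraries did not overlap, lower in Egr1KO, beside 7.47% of all genes that lay apart in that direction. At 6 h 0 of the 8 were called by the exact test, beside 0.743% of 15618 genes tested (62.9% of those calls higher, or 41.7% with library totals for scaling), 0 had an unadjusted p under 0.05, beside 9.67% of all genes, and the quasi-likelihood F-test and DESeq2 called 0. At that time the libraries of Egr1KO and WT overlapped for all 8 genes, whereas they lay apart for 6.1% of all genes with Egr1KO higher and 7.99% with Egr1KO lower. The largest difference at 6 h was that of Dnajb1, with 0.57 ± 0.34 (SE) on the log2 scale and an exact test FDR of 0.674.

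The same question was put for Fosb, which encodes a subunit of the AP-1 transcription factor. No group was labelled as carrying the MLR10-cre transgene or the floxed alleles alone. Their effects thus cannot be told apart from that of losing Fosb. At 0 h Hspa1b was 1.81-fold lower in FosBcKO than in WT, a log2 difference of -0.85 ± 0.17 (SE) with an exact test FDR of 0.0336. Thus 1 of 8 was called, beside 0.392% of 14556 genes tested. The call was lost in the quasi-likelihood F-test (FDR 0.143) and in 4 other settings, and without WT 0 h replicate 1 or 3 the exact test FDR was 0.462 and 0.0907, without FosBcKO 0 h replicate 1, 2 or 3 it was 0.505, 0.133 and 0.126. With both Hspa1 copies summed the difference was -0.65 with an FDR of 0.144. The libraries of Hspa1b and Hsph1 lay apart, lower in FosBcKO, as did those of 6.34% of all genes.

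At 6 h Hspb1 was 2.42-fold higher in FosBcKO than in WT, a log2 difference of 1.27 ± 0.29 (SE) with an exact test FDR of 0.00335. It was the 1 gene of 8 called, beside 6.26% of 16155 genes tested and 5.17% called higher. The quasi-likelihood F-test gave an FDR of 0.0617, or 0.301 in a single fit of all libraries, and without FosBcKO 6 h replicate 2, the library with the highest level, the exact test FDR was 0.0614. At 0 h the log2 difference of Hspb1 was 0.88 ± 0.71 with an FDR of 1, and 0.0301 without FosBcKO 0 h replicate 2, whose level of 21.1 normalised CPM was far below the 95.6 and 101 of the other FosBcKO libraries and whose share of pairs outside genes was the highest of that group. The part of that share in this result was not tested.

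Of the other members at 6 h, Hspa1a differed between FosBcKO and WT by 0.77 ± 0.27 (SE) on the log2 scale with an exact test FDR of 0.138, and Hsp90aa1 by -0.46 ± 0.25 with an FDR of 0.348. The libraries of Hspb1 lay apart and higher in FosBcKO, beside 11.3% of all genes, and those of Hsp90aa1 and Hsph1 apart and lower, beside 10.8%. The median log2 difference of the 8 genes was -0.14 at 6 h and -0.24 at 0 h, against 0.0044 and -0.0069 over all genes tested. Both knockouts were compared with the same WT libraries.

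**Figure D4:**
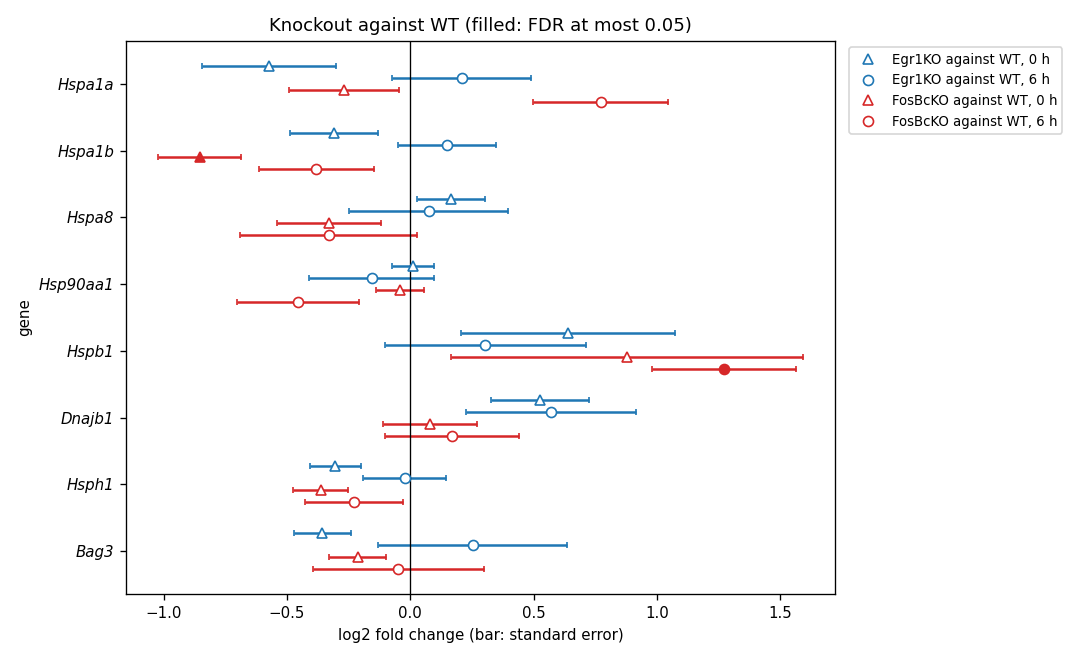
Log2 differences of the 8 genes between each knockout and WT at 0 h and at 6 h PCS, with bars of 1 standard error and filled points for genes called at an exact test FDR of at most 0.05. The filled points are Hspb1 in FosBcKO at 6 h, at 1.27, and Hspa1b in FosBcKO at 0 h, at -0.85.

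A difference in the 6 h response itself, knockout minus WT, was taken from the interaction term of a fit to all 18 libraries. The quasi-likelihood F-test called 0 of the 8 genes for either knockout, as it called 0% of the 17469 genes tested, and DESeq2 called 0 of the 8. At an unadjusted p under 0.05 there were 0 of 8 for Egr1KO, beside 6.53% of all genes, and 2 of 8 for FosBcKO, beside 6.7%. Those 2 were Hspa1a, whose log2 fold change was 0.96 ± 0.38 (SE) larger in FosBcKO (FDR 0.646), and Hsp90aa1, whose log2 fold change differed by -0.49 ± 0.21 (FDR 0.705). In Egr1KO the response of Hspa1a differed by 0.73 ± 0.38 (FDR 0.772) and that of Bag3 by 0.56 ± 0.42 (FDR 0.835). The standard errors of these differences ran from 0.20 for Hsph1 to 0.79 for Hspb1. They leave room for differences as large as those named in the genes of wide spread, and less so in Hsph1. A test that misses the threshold does not show equal responses.

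The genes also differed in how much replicates of a group varied. The SD of log2 CPM within groups, over 12 degrees of freedom, was 0.118 for Hsp90aa1 and 0.155 for Hsph1, at the 3.67th and 12th percentile of 9372 genes of at least 3 in average log2 CPM, whose median was 0.266. Hspb1 had an SD of 0.786, at the 96.5th percentile. Bag3, Dnajb1, Hspa1a and Hspa8 lay between the 71.1st and the 80.8th percentile and Hspa1b at the 48.9th. Hsp90aa1 and Hsph1, of low spread, could thus be compared more closely between groups than Hspb1.

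Members deviated together in some libraries. In FosBcKO 6 h replicate 2 all 8 lay above their group means, by 0.31 on average on the log2 scale, and in FosBcKO 0 h replicate 2, the library with the higher share of pairs outside genes, 1 of 8 did, with a mean of -0.33. In FosBcKO 0 h replicate 3 it was 7 of 8, with a mean of 0.25. In Egr1KO 6 h replicate 1 and in WT 6 h replicate 3 it was 2 of 8, with means of -0.19 and -0.21. The part of the share of pairs outside genes in these deviations was not tested.

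Profiles over the 18 libraries were set side by side by the root mean square (RMS) difference of log2 CPM, each gene centred on its own mean. This is a description, over libraries that share the 0 h to 6 h step. Hsp90aa1 and Hsph1 were nearest to each other, with an RMS difference of 0.245, and Hspa1b was nearest to Hsp90aa1, with 0.325. Hsph1 varied little, and the RMS of its own centred profile was also 0.245, so it lay no nearer to Hsp90aa1 than to a flat profile. The own RMS of Hspa8 was 0.423, below its 0.46 to Hsph1, its nearest member. Dnajb1 was nearest to Hspa1a, with 0.647, and farthest from Hspa8, with 1.52. Hspa1a was nearer to Bag3, with 0.618, than to its copy Hspa1b, with 0.873. For each member some of the 9364 other genes with an average log2 CPM of at least 3 were nearer than any other member, from 53 such genes for Dnajb1 to 4076 for Hspa8, and their names are not analysed here.

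**Figure D5:**
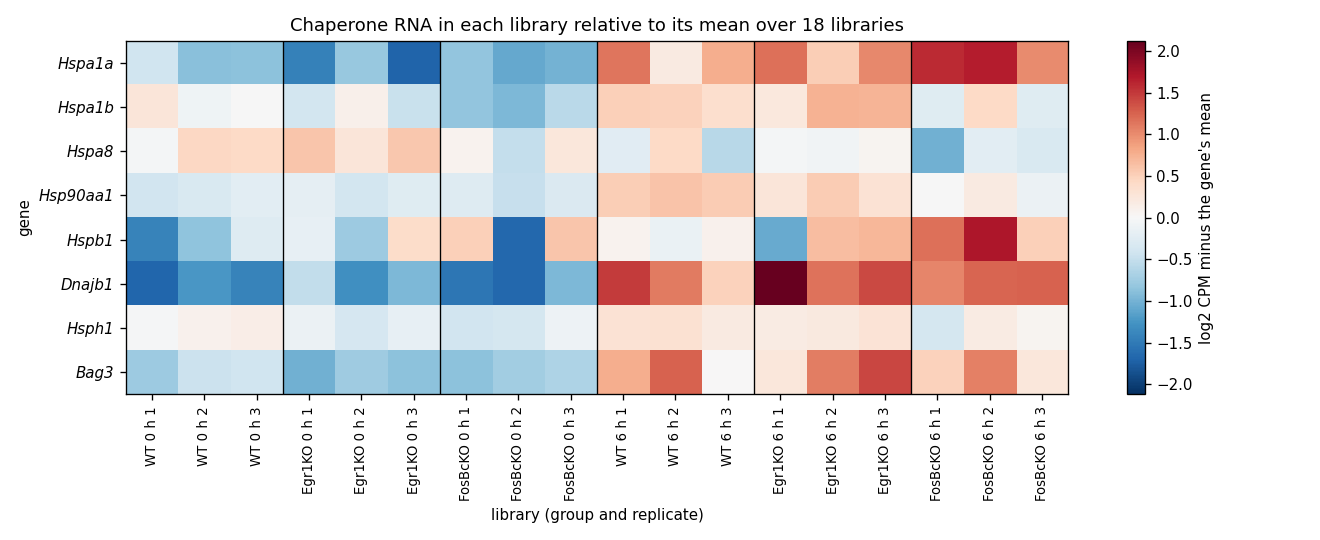
Heat map of the 8 genes (rows) in the 18 libraries (columns, by group and replicate), coloured by log2 CPM minus the gene's mean over all libraries, red above and blue below. Dnajb1, Hspa1a and Bag3 turn from blue at 0 h to red at 6 h, paler for Bag3 in WT 6 h replicate 3, Hsp90aa1 and Hsph1 stay pale throughout, and Hspb1 is deep blue in FosBcKO 0 h replicate 2.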

How the data were processed

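LEC RNA was sequenced by the authors as stranded, ribodepleted, paired-end libraries, aligned with HISAT2 and counted per Ensembl gene with HTSeq in union mode. What was deposited per library is 1 table of raw, unnormalised read pair counts. The study's methods give GRCm38 as the build and the submitters' processing notes GRCm39, so no coordinates are printed. Pairs assigned to no gene, 34.4% to 48.0% of all pairs per library, entered neither library sizes nor tests. No 2 libraries of a group agreed within sampling noise.

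Groups and replicate numbers came from the labels. The tables carry no gene names, and the RefSeq table used for names (GRCm38.p6) holds 0 Ensembl IDs, so names of the 8 members are those given with their IDs. Planned lists of other pathway genes, cell type markers, Egr1 and Fosb, and promoter motifs and sequences, are not analysed here. The members and lists were chosen with earlier results of these data known.

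Tests used edgeR 4.0.16 in R 4.3.3 with filterByExpr, TMM and robust dispersions on all genes: the quasi-likelihood F-test for 6 h against 0 h and for the interaction, and the exact test for knockout against WT, each on the libraries of its contrast. Calls had an FDR of at most 0.05 after Benjamini-Hochberg adjustment. Standard errors come from the quasi-likelihood fit. Log2 CPM used a prior count of 2. Shares were compared by exact permutation. Alternatives were the other edgeR test, DESeq2 1.42.0, RLE size factors, the absence of a filter, a minimum of 10 counts in 3 libraries, a single fit of all libraries, a replicate block, a 2-fold minimum, summed Hspa1 copies and leaving out each library. Library totals, scaling without the members and the 10 most abundant genes, and share tests that keep same-numbered libraries together were added after seeing the data. The scripts were tested on simulated counts with 200 changed genes. Same-numbered libraries of 0 h and 6 h deviated together in WT, with a correlation of 0.102 to 0.247 in 3 of 3 pairs. The main WT test left this pairing out. It entered through the replicate block, an alternative under which 5 members were called in WT. PCR copies of a molecule count separately, as molecular identifiers are not mentioned.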

Additional observations from a re-analysis of the deposited data

Results flagged for a closer look

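Hspa1a was the gene whose difference between FosBcKO and WT pointed opposite ways at the 2 times. At 0 h every FosBcKO library lay below the WT mean, with a log2 difference of -0.27, and at 6 h every FosBcKO library lay above it, with a log2 difference of 0.77. The difference between these values, tested as an interaction by edgeR's quasi-likelihood F-test over all 18 libraries, was 0.96 ± 0.38 (SE) on the log2 scale, with an FDR of 0.646. Neither difference passed the exact test on its own, and the libraries of FosBcKO and WT overlapped at both times. Without each library the difference at 0 h ranged from -0.35 to -0.082. Against the same WT libraries, the log2 difference of Hspa1a in Egr1KO also changed sign, from -0.57 at 0 h to 0.21 at 6 h. Neither of these passed the exact test, with FDRs of 0.849 and 0.922. The change of sign was thus not particular to FosBcKO. The counts of Hspa1a share the uncertainty of its near-identical copy.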

How the results depend on the processing

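Of 1375 recomputed values, 1257 kept their direction and their side of the threshold, 45 fell short of it, 11 passed it anew and 62 changed sign, of which 0 were called. The cause was not tested. The numbers of members called at 6 h against 0 h without each library were 2 to 4 for WT, 3 to 7 for Egr1KO and 3 to 4 for FosBcKO, and with a 2-fold minimum it was 3 in Egr1KO. For FosBcKO against WT it was 0 to 1 at both times without each library. It was 0 at 0 h and 0 at 6 h by the quasi-likelihood F-test, in a single fit of all libraries and with the replicate block, and 0 at 0 h also with no filter, with the 2-fold minimum and with the Hspa1 copies summed. The replicate block changed no call besides those named here and in the text. Outside the WT times, not every same-numbered pair had a correlation over 0.1. Those over it were 1 of 3 pairs in Egr1KO, 2 of 3 in FosBcKO, and between genotypes 1 of 6 at 0 h and 2 of 6 at 6 h. In FosBcKO the same-numbered pairs of the times ran from 0.0776 to 0.181 and the others from -0.201 to 0.0567. In Egr1KO the ranges were 0.0198 to 0.146 and -0.114 to 0.0882. These values do not exclude pairing in the knockouts, and whether same-numbered libraries held the same mice is not stated. With same-numbered libraries kept together, a replicate block for the shares of read pairs, the difference of 14.7 points between FosBcKO and WT had an exact p of 0.1, and exact p-values of the 6 h minus 0 h differences were 0.00391 to 0.00781.

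Library totals in place of TMM moved the median log2 value over all genes from -0.022 to 0.091 for WT at 6 h against 0 h, from 0.032 to -0.18 for Egr1KO against WT at 6 h, from 0.0044 to -0.12 for FosBcKO at that time, and from 0.022 to -0.12 for the Egr1KO interaction. With them, the log2 difference of Egr1KO from WT was -0.013 for Hsp90aa1 at 0 h and -0.026, -0.057 and -0.12 for Hspa1a, Hspa1b and Hspa8 at 6 h. The interaction of Dnajb1 in Egr1KO was 0.041 with no filter, 0.017 with the replicate block and 0.013 with scaling without members and top genes. In FosBcKO it was -0.0071 with no filter and -0.0225 with library totals, where that of Hsph1 was -0.00082. Without each library the log2 difference of Egr1KO from WT ranged from -0.045 to 0.069 for Hsp90aa1 at 0 h, and at 6 h from -0.0038 to 0.44 for Hspa1a, -0.13 to 0.42 for Hspa8, -0.060 to 0.0086 for Hsph1 and -0.013 to 0.58 for Bag3. For FosBcKO it ranged at 0 h from -0.087 to 0.020 for Hsp90aa1 and -0.15 to 0.22 for Dnajb1, and at 6 h from -0.084 to 0.41 for Dnajb1 and -0.34 to 0.27 for Bag3. Egr1KO interactions ranged from -0.31 to 0.20 for Hspa8, -0.72 to 0.023 for Hspb1 and -0.33 to 0.24 for Dnajb1. FosBcKO interactions ranged from -0.30 to 0.25 for Hspa8, -0.14 to 0.61 for Hspb1, -0.23 to 0.26 for Dnajb1, -0.057 to 0.20 for Hsph1 and -0.20 to 0.40 for Bag3. The Hspa1a share of Egr1KO minus WT ranged from -3.74 to 1.19 points. The lowest count of a member was 64 read pairs, and the effect of depth was not tested. The planned gene lists and motif search were not run.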
